A study of Mus musculus with 23 samples.

Results

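The circadian genes described here are 10 repressors and output factors of the clock in mouse liver. They are the period genes Per1, Per2 and Per3, the repressor genes Ciart and Bhlhe41, the PAR-bZIP genes Dbp, Tef and Hlf, and the Rev-erb genes Nr1d1 and Nr1d2. They were chosen by symbol, and all 10 were found among the 54838 genes of the count table. Liver RNA of C57BL/6J mice was sequenced in 23 libraries of 6 groups for a study on metabolic and heart disease. Recombinant EPDR1 (ependymin-related protein 1), FCN2 (ficolin-2) and FSTL3 (follistatin-like 3) were injected in batch 2, with 4 libraries each and 4 of a vehicle of that batch. Recombinant LBP (lipopolysaccharide-binding protein) was injected in batch 1, with 3 libraries (replicates 2, 3 and 4) and 4 of a vehicle of batch 1. Each protein dose was 1 µg for every g a mouse weighed, and 3 doses were given with intervals of 1 day. The age of the mice, what the vehicle was and the hour at which livers were taken are not given in the sources used here. Nothing in the labels ties each library to its own mouse, so a p-value here reflects spread among libraries, and some of that may be technical. RNA was taken from whole liver, and fewer cells of a type cannot be told apart from less RNA per cell.

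In the mammalian clock, the activators CLOCK and ARNTL (also called BMAL1) bind E-boxes in DNA and switch on the genes of their own repressors, the PER and CRY proteins. The PAR-bZIP factors DBP, TEF and HLF carry the rhythm to D-boxes in other genes, where the repressor NFIL3 competes with them, and the Rev-erb receptors hold down Arntl and Nfil3. In liver the messages of most of these repressors and output factors rise and fall strongly over the day, while that of Arntl runs opposite to them.

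The promoter stretches below hold E-boxes and D-boxes found near the starts of 5 of the 7 genes called together in the results. Tef has windows at 2 starts with an E-box in each, and the one shown lies 138 bases before its start, while the other, 127 bases before the other start, is not printed. They come from RefSeq promoter windows of 300 bases on GRCm38.p6, with 250 bases before the start and 50 after it, and 9 of the 10 genes had 1 or more such windows (11 in all). Each is printed 5′ to 3′ on the strand of its gene, with the motif in capitals. The motifs searched, on both strands, were the E-box CACGTG, the variant E-box CACGTT, the D-box TTATGNAA, the Rev-erb and ROR element and the cAMP response element TGACGTCA, and no printed stretch overlaps an annotated exon of Ensembl release 95.
Ciart, chr3:95882259-95882358, minus strand, 3 E-boxes: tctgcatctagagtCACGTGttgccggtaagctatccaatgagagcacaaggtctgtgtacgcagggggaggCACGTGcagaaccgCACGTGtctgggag
Tef, chr15:81811254-81811313, plus strand, E-box between exons of the gene: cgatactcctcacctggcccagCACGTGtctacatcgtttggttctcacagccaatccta
Per1, chr11:69098759-69098818, plus strand, E-box between exons of the gene: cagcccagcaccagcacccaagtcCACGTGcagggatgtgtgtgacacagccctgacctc
Per1, chr11:69098899-69098947, plus strand, D-box between exons of the gene: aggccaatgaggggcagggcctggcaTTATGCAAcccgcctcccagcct
Bhlhe41, chr6:145865559-145865620, minus strand, E-box: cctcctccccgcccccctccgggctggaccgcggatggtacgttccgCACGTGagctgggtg
Per3, chr4:151044806-151044885, minus strand, 2 D-boxes: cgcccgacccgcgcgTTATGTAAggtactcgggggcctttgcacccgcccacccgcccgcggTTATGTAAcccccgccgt
E-boxes lay in the windows of 4 of the 9 genes (Per1, Ciart, Tef and Bhlhe41), and 7.15% of all 32851 promoter windows held 1 or more. Ciart held 3 E-boxes, starting 116, 58 and 44 bases before its start, and 29 of all windows (0.0883%) held 3 or more. D-boxes lay in the windows of Per1 and Per3, and 3.38% of all windows held one; the pair in Per3 started 205 and 158 bases before its start. The variant E-box was found at Nr1d1 (4.68% of all windows) and the cAMP response element at Hlf (1.79%), while the Rev-erb and ROR element (0.219%) matched no window of these genes. The windows of Dbp and Nr1d2 held none of the 5 motifs. A match says only that these letters are there.

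Some libraries stood apart. Total counts ran from 773499 in 1 library of the batch 1 vehicle to 21892416 in 1 of the batch 2 vehicle, and from 9298871 to 10930800 in FSTL3. In the FSTL3 libraries small structural RNAs took 0.667% to 0.753% of counts, against 0.0056% to 0.00773% in the batch 2 vehicle, and mitochondrial protein-coding genes 1.97% to 2.13% against 7.36% to 11.8%. In LBP replicate 2 albumin, the main plasma protein of hepatocytes, took 0.211% of counts, against 5.26% or more in every other library. The 7 hepatocyte markers were present in every group, with summed levels from 72582 to 111557 CPM outside LBP and 39629 CPM in the lowest LBP library. Levels are in CPM, counts scaled to a common library size after TMM normalisation, and are given as mean ± SD with n of 4, or of 3 for LBP.

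The clock genes fell into high and low levels by group. Per1, Per2, Per3, Ciart, Dbp, Tef and Bhlhe41 were high in the livers of FSTL3 and of the batch 1 vehicle and low in those of EPDR1, FCN2 and the batch 2 vehicle, with no overlap between any library of the first 2 groups and any of the other 3. Of the 11969 genes tested, 29.9% lay wholly higher in FSTL3 than in the batch 2 vehicle, 29.9% than in EPDR1 and 31.5% than in FCN2. In the batch 1 vehicle 15.8% lay wholly higher than in the batch 2 vehicle. The share of all genes with the whole pattern was not computed. LBP livers lay at or below the level of their own vehicle, with a wide spread. Hlf, Nr1d1 and Nr1d2 differed much less between groups. The plot of levels by library shows all 10 genes.

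**Figure D1:**
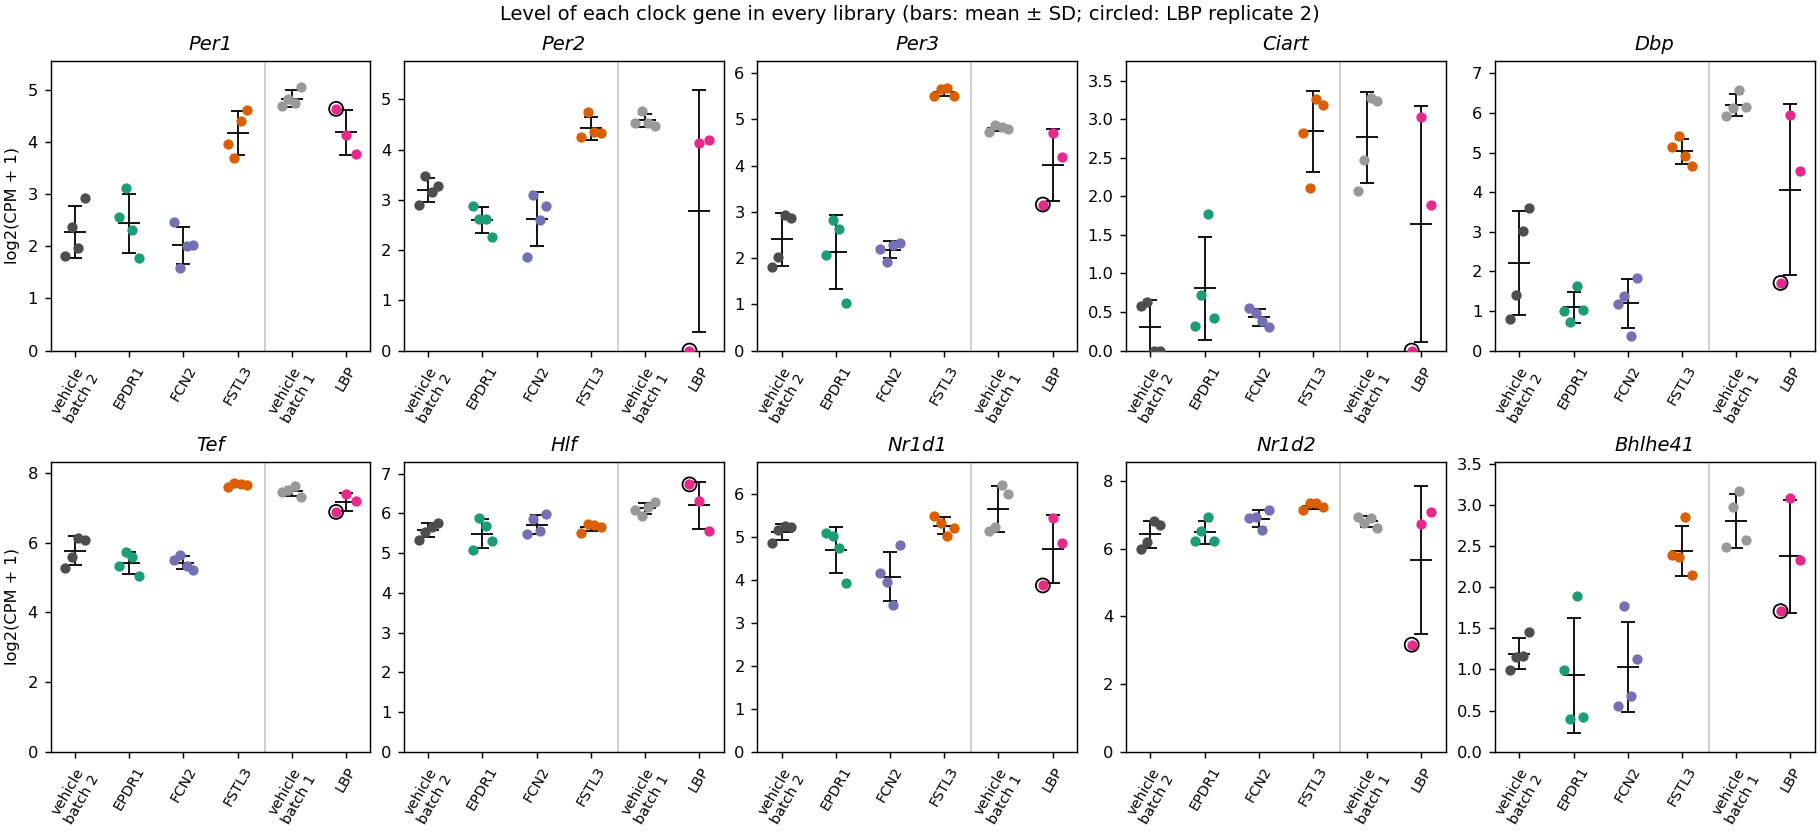
Level of each clock gene as log2(CPM + 1) on the vertical axis, 1 panel per gene, with 1 point per library, the mean and SD of each group as bars, and a line between batch 2 on the left and batch 1 on the right. LBP replicate 2 is circled. For Per3, FSTL3 libraries ran from 44.4 to 50.0 CPM and the batch 1 vehicle from 25.4 to 28.5 CPM, above the highest batch 2 vehicle library at 6.64 CPM, while the points of Hlf lie close together across groups.

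Per1 and Per2 encode the main PER repressors, and Per3 a related protein. Per1 (ENSMUSG00000020893, GRCm38 chromosome 11, 69095217 to 69109960) was at 2.49, 4.19, 2.91 and 6.59 CPM in replicates 1 to 4 of the batch 2 vehicle. In FSTL3 it was at 14.6, 11.9, 20.2 and 23.4 CPM. The batch 1 vehicle was the highest group for Per1, with 24.7, 27.4, 25.7 and 32.4 CPM, above all LBP libraries at 23.8, 16.6 and 12.6 CPM in replicates 2, 3 and 4. EPDR1 libraries (2.41 to 7.69 CPM) and FCN2 libraries (2.00 to 4.53 CPM) overlapped their vehicle. Per1 rose 4.33-fold in FSTL3 over the batch 2 vehicle (log2 2.11 ± 0.31 SE, edgeR adjusted p = 1.19e-05), and it was 6.79-fold higher in the batch 1 vehicle than in the batch 2 vehicle (log2 2.76 ± 0.32, edgeR adjusted p = 4.14e-05).

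Per2 (ENSMUSG00000055866, chromosome 1, 91415982 to 91459324) was at 6.47, 10.1, 7.89 and 8.68 CPM in the batch 2 vehicle and at 18.1, 26.1, 19.4 and 19.2 CPM in FSTL3. It was at 22.3, 26.3, 22.2 and 21.3 CPM in the batch 1 vehicle. LBP replicates 3 and 4 held 16.6 and 17.2 CPM, and LBP replicate 2, with 1463037 counts in all, held no Per2 read. The FSTL3 range and that of the batch 1 vehicle overlapped and lay wholly above the batch 2 vehicle. The rise of Per2 in FSTL3 was the smallest of the 3 Per genes (log2 1.29 ± 0.35, edgeR adjusted p = 0.00509), and its difference between vehicles was close to it in size (log2 1.43 ± 0.36, edgeR adjusted p = 0.0131). In EPDR1, Per2 lay below every library of its vehicle (3.79 to 6.38 CPM), as did 1.91% of all genes in that direction (2.31% in the other), but the difference did not pass the test (log2 -0.71 ± 0.40, edgeR adjusted p = 1).

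Per3 (ENSMUSG00000028957, chromosome 4, 151003652 to 151044665) was at 2.49, 3.05, 6.64 and 6.25 CPM in the batch 2 vehicle. It was at 44.4, 49.3, 50.0 and 44.8 CPM in FSTL3 and at 25.4, 28.5, 27.5 and 26.8 CPM in the batch 1 vehicle. LBP held 7.93, 25.1 and 17.2 CPM in replicates 2, 3 and 4. Ranges of Per3 fell without overlap from FSTL3 through the batch 1 vehicle and LBP to the batch 2 vehicle. The steps on either side of LBP were narrow, at 25.4 against 25.1 CPM and at 7.93 (7 reads) against 6.64 CPM. LBP did not pass against its vehicle for this gene (log2 -0.59 ± 0.33, edgeR adjusted p = 0.313). Of all genes, 27.7% lay wholly higher in FSTL3 than in the batch 1 vehicle and 23.5% wholly lower. In LBP 6.23% lay wholly below that vehicle and 4.62% wholly above. The share for LBP against the batch 2 vehicle was not computed. Per3 rose 11.2-fold in FSTL3 (log2 3.48 ± 0.33, edgeR adjusted p = 5.22e-08). It was 6.41-fold higher in the batch 1 vehicle than in the batch 2 vehicle (log2 2.68 ± 0.34, edgeR adjusted p = 7.43e-05). No other of the 10 genes passed the test between FSTL3 and the batch 1 vehicle, where Per3 was higher in FSTL3 by log2 0.80 ± 0.28 (edgeR adjusted p = 0.0345). Dropping any 1 of the 8 libraries of these groups took that call away (edgeR adjusted p up to 0.0876).

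Ciart (also called CHRONO), a repressor that acts on CLOCK and ARNTL, had the lowest counts of the set in EPDR1, FCN2 and the batch 2 vehicle. Ciart (ENSMUSG00000038550, chromosome 3, 95878503 to 95882251), whose window held 3 E-boxes, was at 0.498 and 0.546 CPM in batch 2 vehicle replicates 1 and 2 and had no read in replicates 3 and 4. FSTL3 held 6.06, 3.30, 8.59 and 8.09 CPM, and the batch 1 vehicle 3.18, 4.57, 8.67 and 8.45 CPM. LBP held 0, 7.16 and 2.69 CPM in replicates 2, 3 and 4. The batch 2 vehicle gave 14 reads in all, against 296 in FSTL3, so the size of the rise is imprecise (log2 3.91 ± 0.61, edgeR adjusted p = 2.32e-05). Between the vehicles the difference was log2 3.95 ± 0.63 (edgeR adjusted p = 0.000458).

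Bhlhe41 (DEC2), which represses E-box genes, was also low. Bhlhe41 (ENSMUSG00000030256, chromosome 6, 145858243 to 145865558) was at 0.996, 1.23, 1.25 and 1.74 CPM in the batch 2 vehicle and at 4.23, 4.17, 6.24 and 3.42 CPM in FSTL3. The batch 1 vehicle held 4.59, 6.85, 8.02 and 4.96 CPM, and LBP 2.27, 7.48 and 4.03 CPM. The ranges of FSTL3, LBP and the batch 1 vehicle overlapped. It rose in FSTL3 by log2 1.82 ± 0.42 (edgeR adjusted p = 0.00163) and was higher in the batch 1 vehicle than in the batch 2 vehicle by log2 2.27 ± 0.45 (edgeR adjusted p = 0.00232). Of its exon bases, 19.05% are shared with the antisense gene Gm43909, and the recorded counting command sets no strand, so reads of the pair cannot be told apart there.

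Dbp, a D-box activator, differed more between the vehicles than any other of the 10 genes. Dbp (ENSMUSG00000059824, chromosome 7, 45705088 to 45710203) was at 0.747, 1.64, 7.06 and 11.1 CPM in batch 2 vehicle replicates 1 to 4, so replicates 3 and 4 lay well above 1 and 2. EPDR1 (0.641 to 2.12 CPM) and FCN2 (0.299 to 2.59 CPM) lay near the lower pair. FSTL3 held 34.4, 41.4, 29.01 and 24.1 CPM, wholly below the batch 1 vehicle at 60.1, 68.5, 95.003 and 70.5 CPM. LBP ranged over 2.27, 60.2 and 22.3 CPM in replicates 2, 3 and 4. Dbp rose 7.49-fold in FSTL3 (log2 2.91 ± 0.60, edgeR adjusted p = 0.000543) and was 17.2-fold higher in the batch 1 vehicle than in the batch 2 vehicle (log2 4.10 ± 0.62, edgeR adjusted p = 0.000281). Dbp shares 18.01% of its exon bases with Sphk2 on the opposite strand.

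Tef, another PAR-bZIP activator, had the smallest SE of the genes that rose. Tef (ENSMUSG00000022389, chromosome 15, 81802421 to 81826863) was at 37.4, 47.3, 68.5 and 66.6 CPM in the batch 2 vehicle and at 193, 207, 203 and 199 CPM in FSTL3. The batch 1 vehicle held 174, 181, 195 and 158 CPM and LBP 117, 166 and 147 CPM. The rise in FSTL3 was 3.66-fold (log2 1.87 ± 0.20, edgeR adjusted p = 2.88e-07), and the difference between vehicles 3.23-fold (log2 1.69 ± 0.20, edgeR adjusted p = 4.83e-05). Tef shares 2.45% of its exon bases with Gm17597 on the opposite strand.

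Hlf, the remaining PAR-bZIP factor, did not pass the test in any comparison of the main edgeR fit. Hlf (ENSMUSG00000003949, chromosome 11, 90336536 to 90390895) was at 39.6, 45.3, 49.8 and 53.1 CPM in the batch 2 vehicle and at 44.6, 52.3, 51.3 and 49.4 CPM in FSTL3 (log2 0.08 ± 0.21, edgeR adjusted p = 0.806). It was at 67.5, 60.5, 71.2 and 77.5 CPM in the batch 1 vehicle, above every library of FSTL3 and of the batch 2 vehicle. Neither difference passed in the main edgeR fit. Between vehicles it was log2 0.57 ± 0.21 (edgeR adjusted p = 0.0877), and for FSTL3 minus the batch 1 vehicle log2 -0.49 ± 0.21 (edgeR adjusted p = 0.0809). Both passed without LBP replicate 2, at log2 0.58 (edgeR adjusted p = 0.00909) and log2 -0.50 (edgeR adjusted p = 0.0105). Both also passed without LBP replicate 4 and with only the libraries compared, and the second with the exon length trend removed. In LBP, Hlf was highest in replicate 2, with 105, 78.4 and 46.3 CPM in replicates 2, 3 and 4.

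The Rev-erb genes encode the nuclear receptors that repress Arntl. Nr1d1 (ENSMUSG00000020889, chromosome 11, 98767932 to 98775333) was at 27.9, 34.4, 37.4 and 36.4 CPM in the batch 2 vehicle and at 43.5, 39.1, 31.5 and 36.1 CPM in FSTL3, ranges that overlapped (log2 0.15 ± 0.31, edgeR adjusted p = 0.745). In the batch 1 vehicle, replicates 1 and 2 (34.3 and 36.5 CPM) lay with those groups and replicates 3 and 4 (73.2 and 62.4 CPM) lay above them, and the difference between vehicles did not pass (log2 0.63 ± 0.31, edgeR adjusted p = 0.198). FCN2 was the lowest group, with 16.7, 14.4, 9.57 and 26.8 CPM, all below the batch 2 vehicle, as in 9.48% of all genes (9.12% lay wholly above). That difference did not pass in the main edgeR fit (log2 -0.996 ± 0.32, edgeR adjusted p = 0.119) and passed without LBP replicate 2 (log2 -0.98, edgeR adjusted p = 0.0255). It also passed with DESeq2, with only the libraries compared and with the vehicles of both batches pooled. Nr1d1 shares 8.55% of its exon bases with Thra on the opposite strand.

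Nr1d2 (ENSMUSG00000021775, chromosome 14, 18204054 to 18239127) was at 62.8, 71.8, 111 and 103 CPM in the batch 2 vehicle and at 139, 161, 162 and 149 CPM in FSTL3. FSTL3 lay above both vehicles for this gene, since the batch 1 vehicle held 122, 106, 120 and 96.5 CPM. The difference from the batch 2 vehicle was log2 0.81 ± 0.39 and did not pass with all libraries (edgeR adjusted p = 0.104), but it passed without LBP replicate 2 (log2 0.82, edgeR adjusted p = 2e-04). LBP replicate 2 held 7.93 CPM of Nr1d2, against 106 and 135 CPM in replicates 3 and 4. No other library of any group was under 62.8 CPM.

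After FSTL3, 7 of the 10 genes rose against the batch 2 vehicle and none fell. Of all 11969 genes tested, 39.2% were called in this comparison, 23.2% higher and 16% lower, where called means an edgeR adjusted p under 0.05. The median log2 difference of the 10 genes was 1.84, against 0.06 over all genes tested. In 8 of the 10 (the 7 and Nr1d2) every FSTL3 library lay above every vehicle library, which 29.9% of all genes did. Without LBP replicate 2, 8 of 10 were called and 56.8% of all genes. The composition of the FSTL3 libraries given above moved with this comparison, and its part in the result was not tested.

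Between the vehicles, 7 of the 10 genes were higher in batch 1 than in batch 2 and none was lower, with 12.2% of all genes called (6.76% higher and 5.41% lower). The share over all genes was 30.3% without LBP replicate 2, where 8 of the 10 were called, 7.27% and 7.17% without batch 1 vehicle replicate 3 or 4, and 7.73% and 7.7% without batch 2 vehicle replicate 3 or 4. The 7 genes called with all libraries were Per1, Per2, Per3, Ciart, Dbp, Tef and Bhlhe41, and the largest difference was that of Dbp. The median log2 difference of the 10 genes was 1.98, against 0.00 over all genes. In 8 of the 10 (the 7 and Hlf) the vehicles did not overlap, as in 15.8% of all genes in that direction. This comparison and that of FSTL3 share the batch 2 vehicle libraries, so their values are given side by side and not as separate support for each other. The vehicles were not handled in 1 batch, and what else differed between the batches cannot be told apart.

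**Figure D2:**
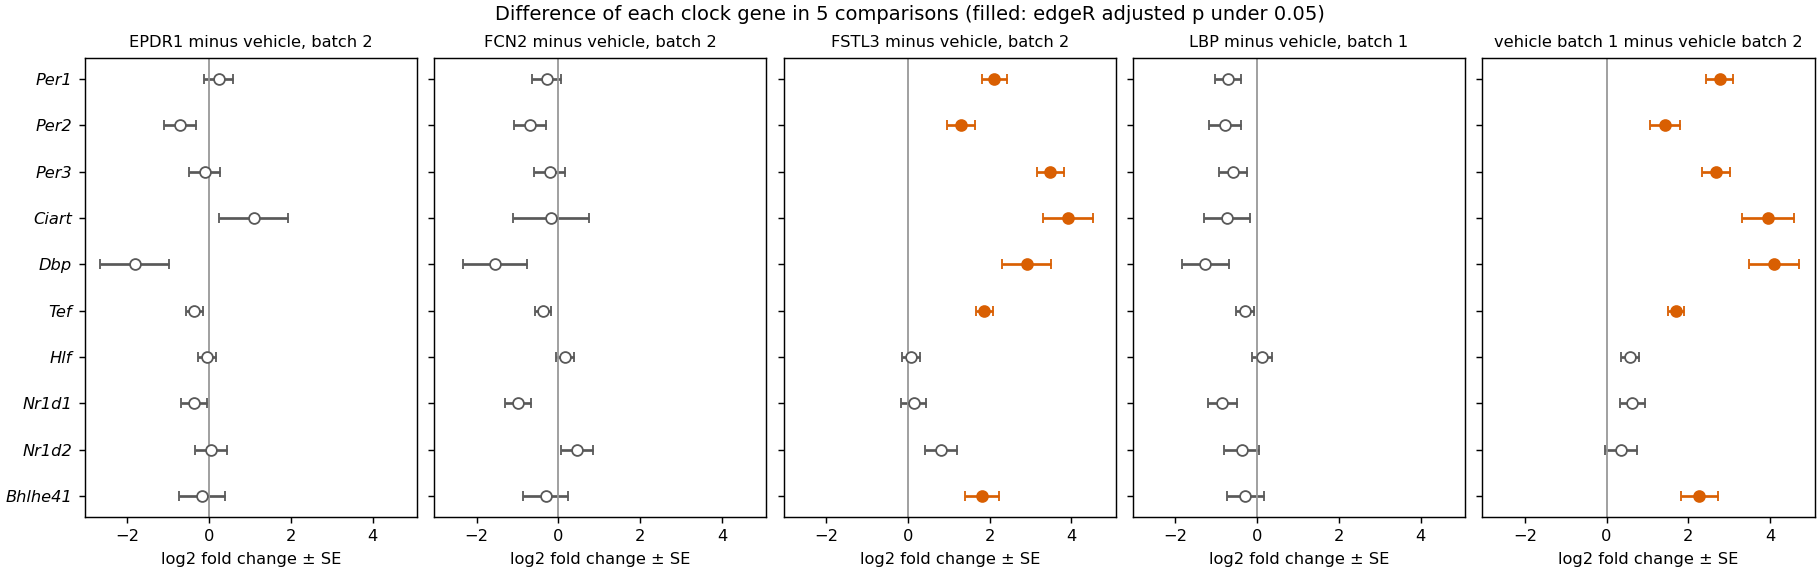
Difference of each clock gene on the log2 scale, ± SE, in 5 comparisons (panels), with filled points for an edgeR adjusted p under 0.05. For FSTL3 7 points are filled, from log2 1.29 for Per2 to 3.91 for Ciart, and 7 between the vehicles, from 1.43 for Per2 to 4.10 for Dbp, while no point is filled for EPDR1, FCN2 or LBP.

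Against the batch 1 vehicle, FSTL3 differed in Per3 alone among the 10 genes, where 31.9% of all genes were called (18.7% higher and 13.2% lower). Per1 (log2 -0.65 ± 0.28, edgeR adjusted p = 0.0763) and Dbp (log2 -1.20 ± 0.50, edgeR adjusted p = 0.0734) were lower in every FSTL3 library than in any batch 1 vehicle library, as was Hlf, and 23.5% of all genes lay that way. Nr1d2 lay higher without overlap, as 27.7% of all genes did (log2 0.46 ± 0.39, edgeR adjusted p = 0.401). Per2, Ciart, Tef, Nr1d1 and Bhlhe41 overlapped. Without LBP replicate 2, 5 of the 10 passed, with Per3 and Nr1d2 higher and Per1, Dbp and Hlf lower, where 49.9% of all genes did. Protein and batch both differ in this comparison and cannot be told apart.

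None of the 10 genes passed in EPDR1, FCN2 or LBP in the main edgeR fit. For EPDR1 no gene of the 11969 was called (0%), 493 of them and 1 of the 10 clock genes (Dbp, log2 -1.82 ± 0.84) had an unadjusted p under 0.05, and DESeq2 and limma-voom called none of the 10. For FCN2, 0.81% of all genes were called (0.159% higher and 0.652% lower), and the log2 differences of the 10 ran from -1.55 (Dbp) to 0.45 (Nr1d2). For FCN2, limma-voom called none of the 10 (1.3% of all genes) and DESeq2 called 1 (6.36% of all genes), and an unadjusted p under 0.05 was found for 1 of the 10 and 2069 of the 11969. The median log2 difference of the 10 was -0.15 for EPDR1 and -0.30 for FCN2, against 0.01 and 0.02 over all genes. Without LBP replicate 2, Per2 (log2 -0.76, edgeR adjusted p = 0.0272) and Nr1d1 passed as lower in FCN2, where 18.9% of all genes were called. Without FCN2 replicate 4 or batch 2 vehicle replicate 1 or 2, no gene was called in FCN2 (0%). Between FCN2 and EPDR1 edgeR called no gene (0%), 1097 of all genes and 0 of the 10 had an unadjusted p under 0.05, and DESeq2 (62 genes in all) and limma-voom (0 genes) called none of the 10. Without LBP replicate 2, edgeR called 579 genes (4.73%) and still none of the 10. Their differences ran from log2 -1.27 for Ciart to 0.40 for Nr1d2. Of all genes, 4.94% were higher in FCN2 than in EPDR1 without overlap and 4.63% lower.

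In LBP, 9 of the 10 genes had a log2 difference below 0 from the batch 1 vehicle and none passed, where 7.7% of all genes were called (6.73% higher and 0.969% lower). That share rests on single libraries: it was 0.727% without LBP replicate 2, 17.4% without LBP replicate 3, 15.8% without LBP replicate 4 and 2.42% to 3.61% without any 1 library of the batch 1 vehicle. An unadjusted p under 0.05 was found for 3 of the 10 and for 2725 of the 11969 genes. DESeq2 (9.93% of all genes called) and limma-voom (0.0251%, 3 genes) called none of the 10. The furthest were Dbp (log2 -1.27 ± 0.57, edgeR adjusted p = 0.185), Nr1d1 (log2 -0.85 ± 0.35, edgeR adjusted p = 0.143) and Per2 (log2 -0.79 ± 0.40, edgeR adjusted p = 0.243). Per1, Per2 and Per3 were lower in all 3 LBP libraries than in any vehicle library, as in 6.23% of all genes, against 4.62% wholly higher. Without replicate 2 the values were log2 -0.87 for Dbp, -0.63 for Nr1d1, -0.41 for Per2 and -0.36 for Per3, while Per1 was at -0.92, and none passed. Without replicate 3, Dbp (log2 -2.29, edgeR adjusted p = 0.0133) and Nr1d1 (log2 -1.25, edgeR adjusted p = 0.0343) passed as lower, 2 of 10 beside that 17.4% of all genes. The summed level of 9 pancreatic acinar markers ran from 21.5 to 1461 CPM in LBP and from 7.78 to 86.3 CPM in its vehicle, and its part in these values was not tested.

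The response to LBP and the response to FSTL3, each against the vehicle of its batch, differed in 7 of the 10 genes, with 31.7% of all genes called (14.9% lower). The differences ran from log2 -2.09 ± 0.53 for Per2 to -4.66 ± 0.84 for Ciart. Hlf (log2 0.04 ± 0.31), Nr1d1 (log2 -0.996 ± 0.46) and Nr1d2 (log2 -1.19 ± 0.58) did not pass. Without LBP replicate 2 the difference was log2 -1.68 for Per2 and -3.93 for Per3. The batches and the proteins are joined in this contrast, and the vehicles of the batches differed in the same 7 genes, as given above.

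Set against the other proteins of batch 2, FSTL3 livers were also high. Against EPDR1, 7 of the 10 genes were higher (42% of all genes called, 24% higher), from log2 1.88 ± 0.31 for Per1 to 4.73 ± 0.72 for Dbp. Against FCN2, 8 of the 10 were higher (44.3% of all genes called, 25.9% higher), with Nr1d1 as the eighth (log2 1.14 ± 0.32, edgeR adjusted p = 0.00567). Both comparisons share the FSTL3 libraries with the one against vehicle.

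The FSTL3 differences also varied with gene length. Over all 11969 genes, the log2 difference between FSTL3 and the batch 2 vehicle rose with exon length (Spearman rho 0.458 across genes, which are not independent replicates), from a median of -0.56 in the shortest of 5 equal length classes to 0.69 in the longest. Per3 (9608 exon bases) and Tef (7867) belong to the longest class, Dbp (2993) and Nr1d1 (3077) to the second shortest and Ciart (2261) to the shortest. Dbp and Ciart thus rose against the trend of genes of their length, and Per3 and Tef with it. Removal of the trend from each library was not complete. A Spearman rho of 0.097 remained for FSTL3 against the batch 2 vehicle and of 0.100 against the batch 1 vehicle. With that removal the 7 genes passed again against the batch 2 vehicle, Per3 at log2 2.85, Tef at 1.39 and Per2 at 1.00. Of the 3619 genes then called (30.2% of all genes tested) 1447 were higher, in place of 2776 of 4695. Against the batch 1 vehicle, Per3 then fell short (log2 0.28, edgeR adjusted p = 0.482), and Per1 (log2 -0.83, edgeR adjusted p = 0.0426) and Hlf (log2 -0.76, edgeR adjusted p = 0.0274) passed as lower, where 26.3% of all genes were called. Summed sinusoidal endothelium markers (7 genes) ran from 490.3 to 588 CPM in FSTL3. They ran from 184 to 230.4 CPM in the batch 2 vehicle and from 255 to 344 CPM in the batch 1 vehicle. Of the 7, 4 were called higher in FSTL3 than in the batch 2 vehicle and 0 lower. Between the vehicles, 4 of the 7 were also called higher in batch 1 and 0 lower, beside 6.76% and 5.41% of all genes. Of 9 Kupffer cell markers 4 were called lower in FSTL3 than in the batch 2 vehicle, with summed levels of 144 to 156 CPM against 176 to 474 CPM. Both tested neutrophil markers, of 4, were called lower (summed 0.174 to 0.667 CPM against 2.74 to 16.6 CPM), as were 2 of 7 hepatocyte markers. Of 6 stellate cell markers 1 was called higher, as was the 1 adipocyte marker tested, of 3. Of 4 cholangiocyte and 3 skeletal muscle markers 2 each were tested, and 1 each was called lower. Of all genes tested, 23.2% were called higher and 16% lower in FSTL3 than in the batch 2 vehicle. The part of these cell types in the clock gene values was not tested.

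**Figure D3:**
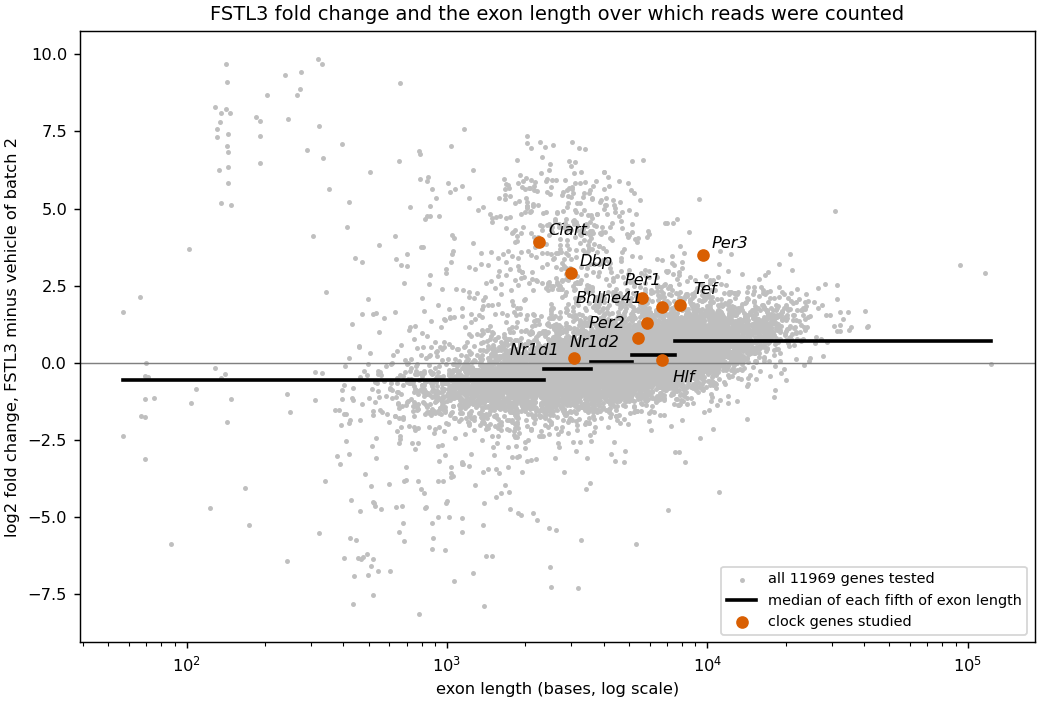
Log2 difference between FSTL3 and the batch 2 vehicle (vertical) against the summed exon length of each gene in bases on a log axis (horizontal), for the 11969 genes tested in grey and the 10 clock genes in orange, with black lines for the median of each of 5 equal length classes. The medians climb from -0.56 to 0.69, and Ciart at 3.91 and Dbp at 2.91 lie far above the line of their class.

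Scaled to exon length, which allows genes to be set beside each other, the order of the 10 genes changed between groups. The FSTL3 differences rose with exon length, as given above, and the part of that trend in the FSTL3 order was not tested. In the batch 2 vehicle Nr1d2 led with 16.1 CPM per kilobase, followed by Nr1d1 (11.1), Hlf (7.03) and Tef (6.98), with Dbp at 1.72 and Ciart last at 0.115 CPM per kilobase. In FSTL3, Nr1d2 (28.2) and Tef (25.5) led, and Dbp stood at 10.8 CPM per kilobase. In the batch 1 vehicle Dbp was first with 24.6 CPM per kilobase, before Tef (22.5) and Nr1d2 (20.5). The Per genes kept to the lower part of the order, at 0.48 to 1.41 CPM per kilobase in the batch 2 vehicle, 3.12 to 4.90 in FSTL3 and 2.82 to 4.89 in the batch 1 vehicle.

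Within groups, single libraries also differed. In the batch 2 vehicle, replicates 3 and 4 were above replicates 1 and 2 for Per3, Dbp, Tef, Hlf, Nr1d1, Nr1d2 and Bhlhe41, and below them for Ciart. Bhlhe41 and Ciart rest on few reads there. Bhlhe41 was at 1.23 CPM in replicate 2 and 1.25 CPM (3 reads) in replicate 3, and Ciart had 2, 12, 0 and 0 reads in replicates 1 to 4. In the batch 1 vehicle, replicates 3 and 4 were above 1 and 2 for Ciart, Dbp, Hlf and Nr1d1. For Per2 they were below them, though replicate 3 (22.2 CPM) was almost level with replicate 1 (22.3 CPM). In FSTL3, replicates 3 and 4 were the higher ones for Per1 and Ciart and the lower ones for Dbp and Nr1d1. For the 7 genes that passed, no such spread closed the gap between FSTL3 and the batch 2 vehicle.

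Among the other genes of the clock, Arntl and Npas2, activators of the loop, were low where the Per genes were high. Of 20 other clock genes, 18 were tested, and after FSTL3 5 rose and 4 fell against the batch 2 vehicle. Of all genes tested, 23.2% rose and 16% fell in that comparison. Arntl, the partner of CLOCK, fell from 25.4 ± 7.10 to 3.44 ± 1.46 CPM (log2 -2.89 ± 0.33), and Nfil3, the D-box repressor, from 49.3 ± 16.2 to 11.9 ± 1.80 CPM (log2 -2.05 ± 0.25). Npas2, which can stand in for CLOCK, fell from 2.08 ± 1.03 to 0.22 ± 0.048 CPM (log2 -3.23 ± 0.46), while Cry2, a repressor that pairs with PER, rose from 16.4 ± 2.02 to 35.9 ± 3.45 CPM (log2 1.14 ± 0.17). All 4 had an edgeR adjusted p of 2.17e-05 or less. Between the vehicles 2 of the 18 were higher in batch 1 and 5 lower, beside 6.76% and 5.41% of all genes tested. In the batch 1 vehicle Arntl was at 2.54 ± 1.68 CPM (log2 -3.31 ± 0.39), Npas2 at 0.027 ± 0.054 CPM (log2 -4.79 ± 0.76) and Cry2 at 36.5 ± 4.002 CPM (log2 1.16 ± 0.18). Bhlhe40, the paralog of Bhlhe41, was at 106 ± 19.5 CPM there, against 43.1 ± 11.2 CPM in the batch 2 vehicle (log2 1.296 ± 0.32). In LBP, Arntl was at 1.49 CPM and Nfil3 at 18.6 CPM on average, and Npas2 had no read in any LBP library.

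**Figure D4:**
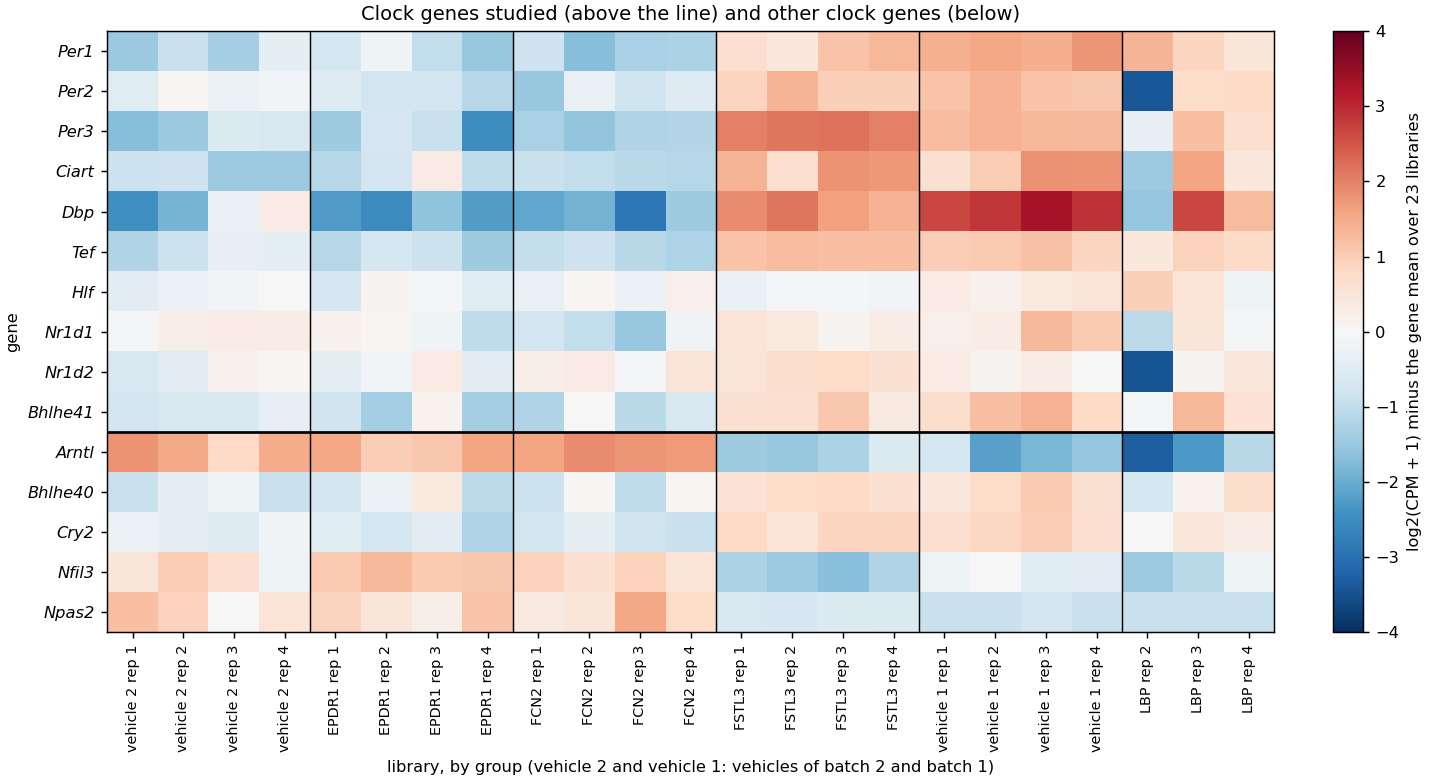
Heat map of log2(CPM + 1) minus the mean of each gene over 23 libraries (colour, red above and blue below the mean), with libraries by group in columns and, in rows, the 10 clock genes above the line and 5 other clock genes below it. FSTL3 and the batch 1 vehicle are red for Per1 to Tef and blue for Arntl and Npas2, the other batch 2 groups show mostly the reverse, and LBP replicate 2 departs from its group in Per2 and Nr1d2, with 0 and 7.93 CPM.

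Known output genes of the clock were tested as a list of 12, of which 6 rose and 2 fell after FSTL3 and 4 were higher and 2 lower in the batch 1 than in the batch 2 vehicle. Of all genes tested, 23.2% rose and 16% fell after FSTL3. Between the vehicles 6.76% of all genes were higher in batch 1 and 5.41% lower. Usp2, a clock-driven ubiquitin protease, rose from 4.11 ± 1.51 to 25.7 ± 1.47 CPM after FSTL3 (log2 2.58 ± 0.50, edgeR adjusted p = 0.000301) and was at 33.4 ± 5.94 CPM in the batch 1 vehicle (log2 2.96 ± 0.51). Wee1, a cell cycle kinase, differed by log2 2.33 ± 0.44 and 2.80 ± 0.45 in the same comparisons and Leo1 by log2 -1.24 ± 0.23 and -1.21 ± 0.25. Lpin1, a phosphatidate phosphatase, rose after FSTL3 (log2 2.23 ± 0.46, edgeR adjusted p = 0.000568), and Por, the electron donor of the P450 enzymes, was higher in the batch 1 vehicle (log2 1.80 ± 0.28, edgeR adjusted p = 0.00036). The medians of the 2 lists after FSTL3 were log2 0.16 for the other clock genes and 0.98 for the outputs, against 0.06 over all genes. No gene of either list passed in EPDR1, FCN2 or LBP, where 0%, 0.81% and 7.7% of all genes were called.

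Over the 23 libraries, the 6 genes outside the set whose levels were most like the mean of its scaled members were Cry2 (Pearson r 0.934), Lrp4 (0.931), Sbk1 (0.916), Tom1l2 (0.915), Wee1 (0.913) and Brap (0.908), from 11392 genes ranked. These are descriptions, since libraries of a group share batch and treatment. Lrp4, as an example, was at 47.4 CPM in FSTL3, 37.3 in the batch 1 vehicle, 23.9 in LBP and 11.7 to 15.8 CPM in the other groups.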

How the data were processed

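The deposited table holds raw read counts per gene, which the authors made from reads aligned to the GRCm38 genome. The submitters' processing notes name STAR 2.6.0c and featureCounts 1.6.3, and per the file headers exons of Ensembl release 95 were counted. Exon lengths were taken from the same deposited table. Symbols were matched to 54723 of 54838 gene IDs.

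Genes kept by filterByExpr (11969, all 10 clock genes among them) got TMM factors, and the quasi-likelihood fit of edgeR 4.0.16 (R 4.3.3, robust) took all 23 libraries with a mean per group. Adjusted p-values are Benjamini-Hochberg over all genes tested, called under 0.05, in 10 comparisons. The SE is the log2 difference over the square root of F. The tests recovered known changes in simulated data, but rates of recovery and of false calls are not given here. That check does not show how the tests perform on libraries of unusual composition, such as those of FSTL3. In all 33 replicate pairs the counts differed beyond sampling noise. No comparison had every pair of libraries of the same number over a correlation of 0.1 in their deviations, which does not show that pairing is absent.

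The clock genes and the gene lists were chosen with earlier results of these data known. All 10 were named; of the 2 other lists, the 4 genes with the smallest p after FSTL3 and between the vehicles; and, among genes averaging 1 CPM or more, the 6 most similar. Other settings were DESeq2 1.42.0, limma-voom 3.58.1, other scalings and filters, only the libraries compared, pooled vehicles, a replicate block, removal of the exon length trend and leaving out each library.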

Additional observations from a re-analysis of the deposited data

Results flagged for a closer look

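Per2 in FSTL3 replicate 2 was at 26.1 CPM (300 counts), apart from the other 3 libraries of its group, the lowest of which was at 18.1 CPM. Its gap to the next library took 0.832 of the range of the group. It was the 1 such case in 50 groups of 4 libraries examined, and chance gives about 1 in 20. Leaving that library out kept Per2 above the batch 2 vehicle.

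The responses to LBP and to FSTL3, each against the vehicle of its batch, differed by a test of the difference itself (edgeR, adjusted over all genes) in 7 of the 10 genes. Of all genes tested, 31.7% were called in this test, 14.9% lower. The LBP response was lower by log2 -2.83 for Per1 (adjusted p = 0.000115), -2.09 for Per2 (0.00518), -4.07 for Per3 (3.21e-06), -4.66 for Ciart (0.000333), -4.18 for Dbp (0.00087), -2.17 for Tef (2.16e-05) and -2.11 for Bhlhe41 (0.0127). The 7 genes passed without LBP replicate 2 as well, where 37.8% of all genes were called. The vehicles on which the responses rest differ in these genes.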

How the results depend on the processing

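Over all settings, 2648 values of single clock genes were recomputed: 2564 kept their direction and their side of the threshold, 12 fell short of it, 40 newly passed and 32 changed sign, 1 of them as a call. The cause of the changes below was not tested. The counts of clock genes called for FSTL3 against the batch 2 vehicle, for the vehicles, for FSTL3 against EPDR1 and for the 2 responses stayed between 7 and 8 when any 1 library was left out, that for FSTL3 against FCN2 stayed at 8, and those for EPDR1 and for FCN2 against EPDR1 at 0. The share of all genes called moved more. It ran from 32.2% to 56.8% for FSTL3 against the batch 2 vehicle and from 7.17% to 30.3% for the vehicles. For FSTL3 it ran from 35.9% to 58.6% against EPDR1 and from 38.2% to 60.8% against FCN2. For the 2 responses it ran from 26.5% to 37.8%, for EPDR1 from 0% to 0.00835% and for FCN2 against EPDR1 from 0% to 4.73%.

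With the vehicles of both batches pooled, FSTL3 called 4 of the 10 genes (39.5% of all genes tested), EPDR1 5 as lower (6.48%) and FCN2 8 as lower (25.7%). FCN2 against its vehicle called 1 with DESeq2 (6.36% of all genes), 1 with only the libraries compared (13.9%) and 0 to 2 on leaving out a library (2 without LBP replicate 2, 18.9%). LBP called 0 to 2 (2 without LBP replicate 3, 17.4%). FSTL3 against the batch 1 vehicle called 2 with the exon length trend removed (26.3% of all genes), 2 with limma-voom (32.8%), 5 with only the libraries compared (57.9%) and 0 to 5 on leaving out a library: 0 without FSTL3 replicate 1, 2 or 3 or any replicate of that vehicle, 5 without LBP replicate 2 (49.9%), 2 without LBP replicate 3 (34.8%) and 4 without LBP replicate 4 (35.5%).

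Sign changes with pooled vehicles were Per1 in EPDR1 (log2 -1.15, edgeR adjusted p = 0.0243), Ciart in EPDR1 (-0.89), Nr1d2 in EPDR1 (-0.13), Hlf in FCN2 (-0.13), and Hlf (-0.21) and Nr1d1 (-0.17) in FSTL3. With the exon length trend removed they were Hlf in FSTL3 (-0.30) and, against the batch 1 vehicle, Tef (-0.20) and Ciart (0.023); Ciart there was at 0.029 with DESeq2, and Ciart in FCN2 at 0.28 with limma-voom. On leaving out a library, log2 values crossed 0 in EPDR1 for Per1 (-0.076 to 0.47), Per3 (-0.40 to 0.17), Ciart (-0.046 to 1.97), Hlf (-0.20 to 0.070), Nr1d2 (-0.13 to 0.19) and Bhlhe41 (-1.08 to 0.10), in FCN2 for Ciart (-0.43 to 0.70) and Bhlhe41 (-0.79 to 0.051), in LBP for Hlf (-0.17 to 0.36) and Nr1d2 (-0.88 to 0.11), and in FSTL3 against the batch 1 vehicle for Ciart (-0.26 to 0.20).

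Same-numbered libraries correlated at -0.14 to 0.33 in their deviations, and 17 of 35 correlated best with their own number. These values do not settle whether the replicate numbers pair the libraries. With a replicate block the counts of clock genes called were the same in all 10 comparisons (7 for FSTL3 against the batch 2 vehicle, with 37.6% of all genes called). Ciart in FSTL3 against the batch 1 vehicle was then at log2 0.11.

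Of the 6 most similar genes, 3 (Cry2, Lrp4 and Wee1) remained without LBP replicate 2 and 0 with Spearman rho. Depth limits Ciart and Bhlhe41 most, with 6 to 16 reads over each of the EPDR1 and FCN2 groups, and LBP and the batch 1 vehicle hold the shallowest libraries.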
